A study of Mus musculus with 8 samples.

Results

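The genes described are 10 that code for myokines, proteins that skeletal muscle can release: Ostn, Mstn, Fndc5, Il15, Il6, Fgf21, Gdf15, Metrnl, Bdnf and Apln. They were listed by name and not picked by a cut on a measured value, but earlier results of these data were known. They are 10 of the 30202 gene symbols counted in the series. Their raw UMIs (tags that let each captured RNA molecule be counted once) were read in all 8 libraries, first over all nuclei and then by nuclear class.

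The study sequenced RNA of single nuclei from muscle of wild-type C57BL/6 mice in 4 groups. Old mice were 20 months old and Young mice 3 months old. Running mice were trained on a treadmill from 11 months of age for 2 months, in sessions of 30 min at 9 m per min, and Sedentary mice of the same age were not trained. Each group has 1 library made with 10x Genomics droplets and 1 from another droplet system, called the second library here. The 2 libraries of a group thus differ in platform, nothing in the labels says how many animals a library holds, and p-values measure only the spread between these libraries.

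The 10x libraries held 10587 to 12991 retained nuclei and 23327640 to 44389777 UMIs, and the second libraries 4228 to 4772 nuclei and 4765224 to 9088163 UMIs. Each pair of 10x libraries shared 30 to 46 cell barcodes. The Old second library stood apart. In it 86.1% of nuclei lay in clusters that no marker list named, against 1.09% to 24.8% in the other 7 libraries, and it holds 216 Type IIb-like and 36 Type IIa/IIx-like nuclei. Xist, made from the inactive X chromosome, was present in all 8 libraries, whereas the Y-linked Ddx3y was at 0 to 0.334 counts-per-million (CPM, a gene's share of all UMIs counted) in the 10x libraries and at 34.7 to 76.3 CPM in the second ones. The labels give no sex, and whatever else differs between the sets cannot be told apart from the platform.

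Myokines act on the muscle itself or travel in blood. Ostn codes for musclin (osteocrin), a peptide that binds the clearance receptor of natriuretic peptides and so raises the local level of those peptides. Mstn codes for myostatin, a member of the TGF-beta family that limits muscle growth, and Fndc5 for the precursor of irisin. Il15 and Il6 are cytokines, Fgf21 and Gdf15 are hormones that many cells make under stress, Metrnl is meteorin-like, Bdnf a neurotrophin, and Apln the ligand of the apelin receptor. Many of them are studied for their response to training or ageing. Fast fibres of mice are divided by their myosin heavy chain into Type IIb (Myh4) and Type IIa or IIx (Myh2, Myh1), and clusters of myonuclei were named here by such markers. The naming is less sure in the second set. Its cluster 0, named Type IIb-like for a Myh4 share of 80.1% of the fast myosin UMIs, scored 0.225 on the Type IIb markers and 0.031 on the Type IIa/IIx markers (mean log2 fold over the other nuclei). It holds 1763 of 2281 Young and 202 of 216 Old Type IIb-like nuclei, but 617 of 3306 Running and 181 of 3366 Sedentary ones. The 2 Type IIa/IIx-like clusters of that set had Myh4 shares of 55.4% and 68.2%, against 7.05% and 38.7% in the 10x set.

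All 10 are protein-coding genes of GENCODE vM21 on GRCm38. Ostn lies at chr16:27307489-27351212 on the plus strand and Mstn at chr1:53061640-53068079 on the plus strand. Fndc5 spans chr4:129136999-129144593 (plus), Il15 chr8:82331632-82403222 (minus), Metrnl chr11:121701544-121716306 (plus) and Bdnf chr2:109674700-109727007 (plus). Il6 is at chr5:30013114-30019981 (plus), Fgf21 at chr7:45613886-45615490 (minus), Gdf15 at chr8:70629393-70632456 (minus) and Apln at chrX:48025146-48034853 (minus).

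RefSeq promoters (GRCm38.p6, 250 bases before to 50 after a gene's start) matched 8 of the 10 genes, all but Ostn and Il15. Those of Mstn and Fndc5 are printed because these genes differed between the fast fibre classes in opposite directions in all 8 libraries. Capitals mark E-boxes, the motif CANNTG (any base at N, the same on both strands) that factors of the MyoD family can bind. The Mstn promoter (chr1:53061390-53061689, plus strand) holds 4 of them, a number that 6.49% of the 32851 promoters in the table reach. The Fndc5 promoter (chr4:129136749-129137048, plus strand) holds 0, whereas 72.3% of all promoters hold at least 1. Bdnf differed in the same direction as Fndc5 in all 8 libraries, and its promoters in the table hold from 0 to 2 E-boxes. The promoter of Metrnl, a gene also higher in Type IIa/IIx-like nuclei, holds 1. A match is a match of letters and not a measured binding site, and a link of E-boxes with fibre class was not tested.
Mstn: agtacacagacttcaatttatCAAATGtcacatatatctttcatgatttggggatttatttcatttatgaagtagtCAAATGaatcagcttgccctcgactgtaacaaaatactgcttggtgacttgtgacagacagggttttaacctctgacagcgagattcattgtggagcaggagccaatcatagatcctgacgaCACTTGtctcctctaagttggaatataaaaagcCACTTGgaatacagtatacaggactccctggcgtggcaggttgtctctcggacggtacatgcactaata
Fndc5: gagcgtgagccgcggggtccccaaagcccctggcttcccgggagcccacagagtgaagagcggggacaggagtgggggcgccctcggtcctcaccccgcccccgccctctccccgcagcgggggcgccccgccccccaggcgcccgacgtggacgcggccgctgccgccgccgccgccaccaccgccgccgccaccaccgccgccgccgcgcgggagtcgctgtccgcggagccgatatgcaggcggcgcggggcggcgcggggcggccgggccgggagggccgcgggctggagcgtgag

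How often each gene was counted set what could be compared. Over the 8 libraries Ostn gave 26712 UMIs, Il15 18250, Mstn 5280, Bdnf 1880, Metrnl 1454 and Fndc5 841. Il6 gave 147, Gdf15 82, Apln 41 and Fgf21 13 UMIs. These totals depend on how well each transcript was captured and are not levels per length. A gene was taken as too sparse within a library set when both libraries of a pair held under 10 UMIs. By this rule Fgf21 was too sparse in all 4 pairs, Apln in 3 of 4 and Gdf15 in 2 of 4 (both pairs of the second set). The other 7 genes could be compared in all 4 pairs.

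The sparse genes were close to the limit of detection. Fgf21 had 5 UMIs in the Old, 0 in the Young, 2 in the Running and 4 in the Sedentary 10x library, and 2 in the Old second library with 0 in the other 3. A count of 0 allows up to 0.0759 CPM in the Young 10x library and 0.336 to 0.643 CPM in the 3 second libraries (3 counts per library, counting error only). For Apln the counts were 7, 3, 1 and 8 UMIs in the Old, Young, Running and Sedentary 10x libraries and 15, 3, 3 and 1 in the second ones. Its only comparable pair was Old versus Young in the second set, at 2.98 against 0.336 CPM, with a log2 ratio of 3.15 (exact 95% interval 1.33 to 5.58), and it rests on the Old library that stood apart. Gdf15 ranged from 10 to 23 UMIs in the 10x libraries and from 3 to 5 in the second ones. Il6 ranged from 13 to 32 and from 11 to 15 UMIs and was seen in 0.110% to 0.293% of nuclei. Its log2 ratio of Old over Young was 1.02 (exact 95% interval 0.01 to 2.11) in the 10x set and 0.83 (-0.35 to 2.004) for the second, and the intervals of Running over Sedentary held 0 in both. For Gdf15 the 10x ratios were 0.96 (-0.10 to 2.10) and 0.21 (-0.93 to 1.45), so neither pair of libraries differed beyond counting error. These 4 genes are too sparse to be described by class.

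**Figure D1:**
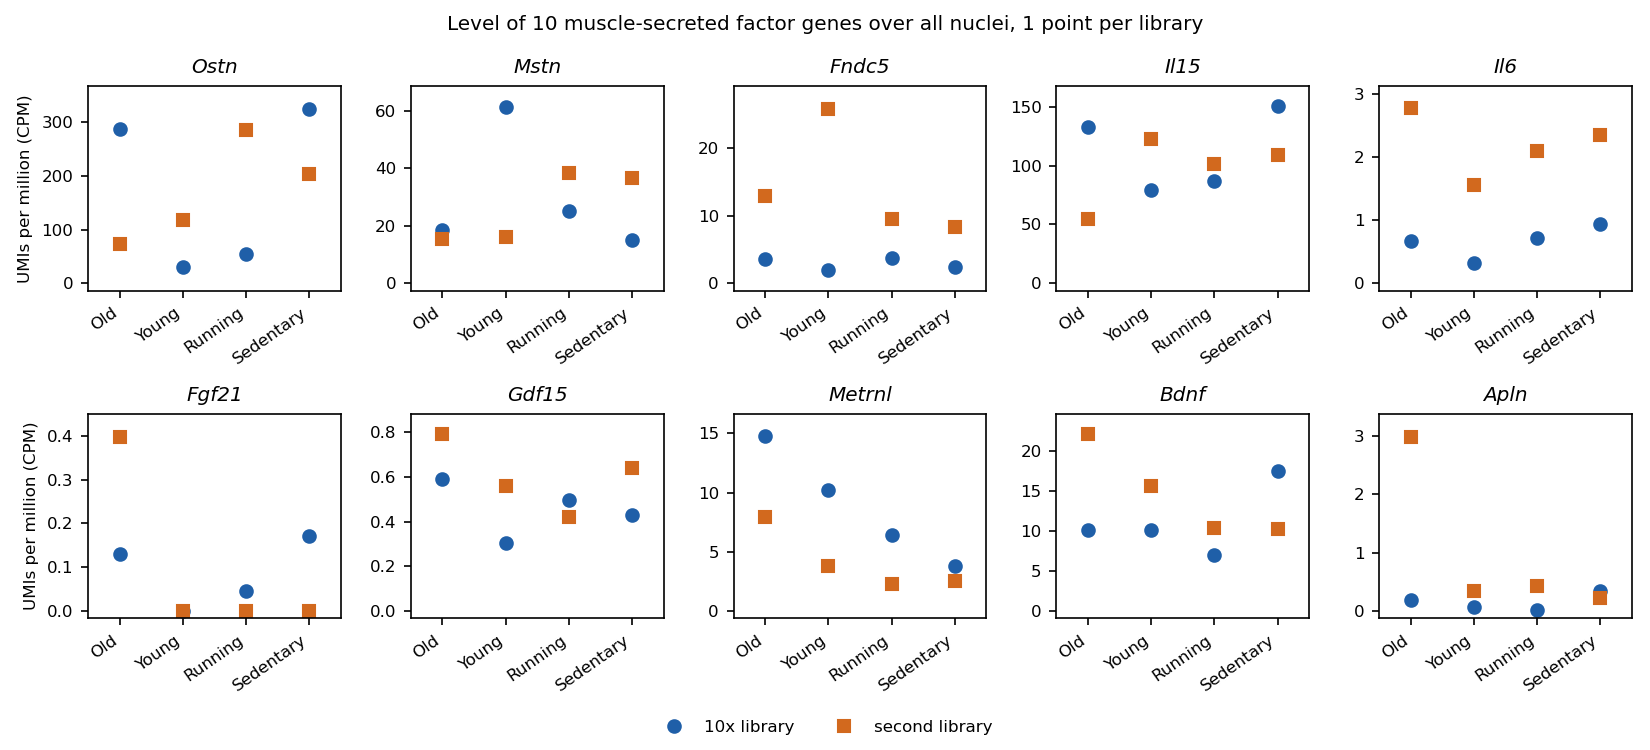
Level of each of the 10 genes over all nuclei (y axis, CPM of the library, own scale in each panel) in the 4 groups (x axis), with a circle for the 10x library and a square for the second library of a group. Ostn in the 10x libraries is at 287 and 325 CPM in Old and Sedentary and at 30.02 and 54.2 CPM in Young and Running, whereas its highest second library is Running at 285 CPM.

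Ostn had the widest range among the 10x libraries of the genes with over 500 UMIs. Over all nuclei it stood at 287 CPM in the Old, 30.02 in the Young, 54.2 in the Running and 325 in the Sedentary 10x library. In the second set the values were 72.3, 119, 285 and 204 CPM in the same order. Within the 10x set Old and Sedentary were thus the high libraries, and within the second set Old was the lowest. The Old over Young ratio was 9.55 in the 10x set (log2 3.26, exact 95% interval 3.17 to 3.34), and in the second set it was -0.71 on the log2 scale (-0.89 to -0.54). Sedentary was 5.998 times Running in the 10x set (log2 of Running over Sedentary -2.59, -2.65 to -2.52), whereas the second set gave 0.48 (0.37 to 0.59). All these are ratios of 1 library to 1 other with intervals for counting error, and they carry no test of the groups.

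In a fit of all 8 libraries with edgeR's quasi-likelihood test the log2 fold change of Ostn was 1.29 ± 1.09 (SE) for Old versus Young (adjusted p = 0.749) and -0.76 ± 1.02 for Running versus Sedentary (adjusted p = 1). Neither passed. The first was -1.41 without the Old 10x library and the second 0.43 without the Running 10x library, so the direction turned with 1 library in each case.

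Most Ostn UMIs came from Type IIb-like nuclei. They held 65.3% to 84.9% of the gene's UMIs in the 10x libraries and 4.12% to 86.6% in the second ones, where the lowest share is the Old library with few named nuclei. In Type IIb-like nuclei Ostn was at 528 CPM (Old), 42.2 CPM (Young), 83.3 CPM (Running) and 606 CPM (Sedentary) of the 10x set. The second set gave 70.3 CPM (Old, 15 UMIs), 157 CPM (Young), 317 CPM (Running) and 224 CPM (Sedentary), where the class is made of different clusters by group, as given above. The difference between the 10x libraries over all nuclei was therefore present inside this class as well. In the 10x Type IIb-like nuclei of Old and Sedentary 53.0% and 43.7% had at least 1 Ostn UMI, against 4.51% and 11.95% in Young and Running. With every nucleus thinned to 500 UMIs these shares were 18.3%, 19.4%, 1.29% and 3.08%.

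The 10x Type IIb-like class is made of 4 large clusters and a small one of 56 nuclei, and the libraries use them unequally. The largest cluster of Young was cluster 0 (3068 of 6679 nuclei) and that of Sedentary cluster 4 (1322 of 2976). Ostn separated the same libraries in each of the 4 large clusters. It ran from 492 to 622 CPM in Old and from 333 to 953 CPM in Sedentary, but from 25.9 to 61.9 CPM in Young and from 43.4 to 117 CPM in Running. None of these clusters in Young or Running reached the lowest cluster of Old or Sedentary. In edgeR's test over Type IIb-like nuclei the log2 fold change was 1.56 ± 0.95 for Old versus Young (adjusted p = 0.983) and -1.13 ± 0.89 for Running versus Sedentary (adjusted p = 1), with the second libraries pulling the other way. Without cluster 0 of the second set, an alternative chosen after seeing the data, these were 2.78 ± 0.79 (adjusted p = 0.306) and -1.61 ± 0.65 (adjusted p = 0.999). The Old second library then had too few nuclei to enter, and the Old 10x library was assumed to vary like the other groups.

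**Figure D2:**
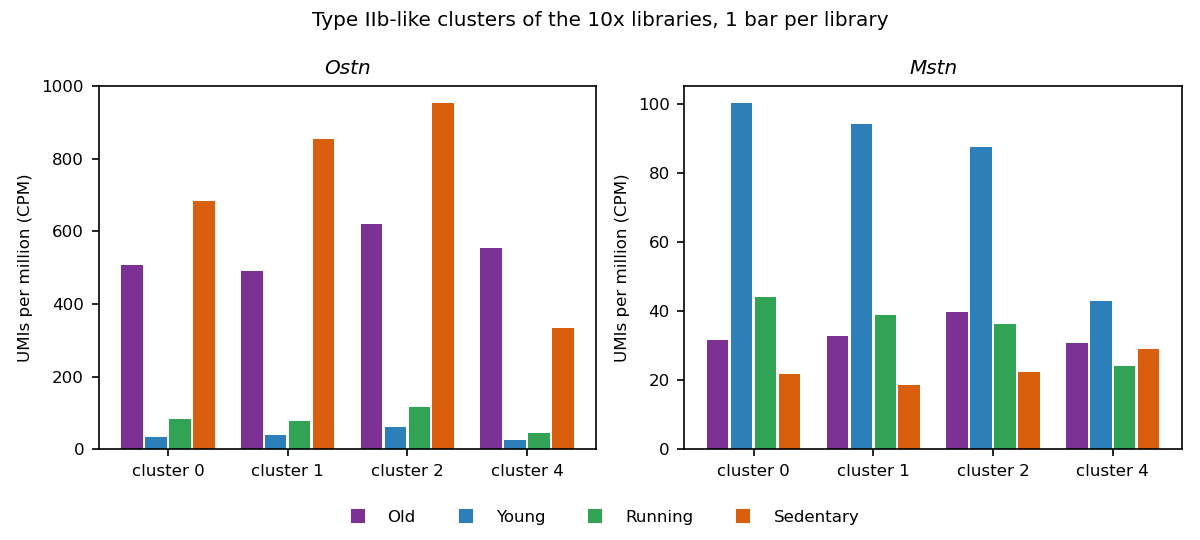
Level of Ostn (left) and Mstn (right) in the 4 large Type IIb-like clusters of the 10x libraries (x axis), as CPM of that cluster and library (y axis, from 0), with 1 bar for each library. Ostn is at 333 to 953 CPM in every Old and Sedentary bar and at 25.9 to 117 CPM in every Young and Running bar, and Mstn is highest in Young in each cluster (42.8 to 100.2 CPM).

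Ostn UMIs also occurred in nuclei of classes not known to make it. Endothelial-like nuclei of the 10x set held 118 CPM (Old), 1.79 CPM (Young), 9.56 CPM (Running) and 164 CPM (Sedentary). Fibro-adipogenic progenitor-like nuclei, the stromal cells of muscle, held 83.1, 8.22, 17.7 and 145 CPM in that order. Both have the order of the Type IIb-like level in the same libraries, at a lower height. Type IIa/IIx-like nuclei were at 126 CPM (Old), 3.61 CPM (Young), 12.2 CPM (Running) and 150 CPM (Sedentary), which is close to the endothelial-like level in each library. At 500 UMIs a nucleus 4.46%, 0%, 0.530% and 5.46% of them had an Ostn UMI, and of endothelial-like nuclei 3.42%, 0.439%, 0.285% and 5.92%, where the whole nuclei held a median of 2223 to 3963 and 1010 to 1862 UMIs. The Ostn level of the Type IIa/IIx-like class as a whole was thus not told apart from that of endothelial-like nuclei. Other classes of the Old 10x library lay lower, such as adipocyte-like nuclei at 39.2 CPM and macrophage-like ones at 81.5 CPM. Some lay higher, such as slow-like nuclei at 219 CPM and B cell-like ones at 554 CPM (UMIs in 6 of 57 nuclei). The part of background in the Type IIa/IIx-like level was not tested. The 2 Type IIa/IIx-like clusters differed. Cluster 5 was at 293 CPM in Old and 202 CPM in Sedentary, above the endothelial-like level, and cluster 7 at 61.6 and 86.0 CPM, below it.

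Ostn received a call in both comparisons in this Type IIa/IIx-like class. The edgeR test gave a log2 fold change of 3.04 ± 0.44 for Old versus Young (adjusted p = 8.39e-09) and of -2.04 ± 0.39 for Running versus Sedentary (adjusted p = 0.000284). With 3 residual degrees of freedom, values this small rest on a spread estimated over all genes and not on that of Ostn alone. The 2 sets lay far apart for Ostn, at log2 ratios of 5.13 (10x) and 1.56 (second) for Old over Young. For Running over Sedentary the 10x ratio was -3.62. Of all genes tested in that class 1.07% and 0.536% were called in these comparisons, and Ostn was the called gene among the 6 members tested there. The part of background, as in the classes not known to make Ostn, in these calls was not tested. In the second set Ostn in this class was at 166 CPM for Old (6 UMIs), 56.3 for Young, 135 for Running and 132 for Sedentary. Running and Sedentary did not differ there beyond counting error (log2 ratio 0.03, -0.45 to 0.52). The class is also made up differently, as 831 of 1144 nuclei of the Old 10x library were in cluster 7 but 522 of 627 of the Young 10x library in cluster 5.

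Neither call held across the libraries left out in turn. The Old versus Young call was lost without the Old 10x (1.51, adjusted p = 0.694), Young 10x (1.81, adjusted p = 0.776) or Old second library (3.66, adjusted p = 0.102), and the value was 4.74 without the Young second library. The Running versus Sedentary call was lost without the Old 10x (-2.24, adjusted p = 0.660), Young 10x (-1.72, adjusted p = 0.0531), Running 10x (-0.79, adjusted p = 1), Sedentary 10x (-0.35, adjusted p = 1) or Old second library (-2.24, adjusted p = 0.513). Without the Running or the Sedentary second library it was -3.17 and -3.21, both still called. With no term for the library set neither comparison was called (2.04 and -1.10, adjusted p = 1 for both), nor was Running versus Sedentary by DESeq2 (-1.96, adjusted p = 1). Of the other members in this class Mstn had the smallest unadjusted p, with 1.22 ± 0.60 for Running versus Sedentary (unadjusted p = 0.043, adjusted p = 1).

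Npr3, the clearance receptor that binds musclin, is the gene of the receptor list with the smallest unadjusted p for Running versus Sedentary. Its level over all nuclei was 91.1 CPM (Old), 13.3 CPM (Young), 10.5 CPM (Running) and 134 CPM (Sedentary) of the 10x set, and 66.3, 14.5, 3.64 and 5.14 CPM in the second set. In the 10x set Old and Sedentary were high. Adipocyte-like nuclei gave 49.4% to 68.0% of the Npr3 UMIs of the 10x libraries, and Npr3 was the leading gene of their cluster 16, which holds 262 Old and 355 Sedentary but 14 Young and 25 Running nuclei. In the second set the Old library held 248 adipocyte-like nuclei and the other 3 held 8 to 12. The part of these nuclei in the Npr3 values was not tested. The log2 fold change was 1.85 ± 0.85 for Old versus Young (adjusted p = 0.749) and -2.72 ± 0.92 for Running versus Sedentary (unadjusted p = 0.0147, adjusted p = 1). Markers of slow fibres differed between the same 10x libraries. The summed level of the 6 slow markers, all detected, was 505 CPM (Old), 103 CPM (Young), 94.7 CPM (Running) and 824 CPM (Sedentary) of the 10x set, and 1264, 3303, 821 and 511 CPM in the second set. Myh7, the slow myosin, was at 128, 1.16, 4.41 and 254 CPM in the 10x libraries. The part of fibre make-up in the Ostn values over all nuclei was not tested, while inside Type IIb-like nuclei the difference between the 10x libraries remained as given above. Sums over all nuclei alone do not tell fewer nuclei of a class from a lower level inside it, so levels by class are given beside them.

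Mstn was the second gene with its UMIs mainly in Type IIb-like nuclei, which held 56.4% to 87.9% of them in the 10x libraries. Over all nuclei it was at 18.6 CPM (Old), 61.3 CPM (Young), 25.1 CPM (Running) and 15.2 CPM (Sedentary) of the 10x set. The second libraries gave 15.5, 16.2, 38.3 and 36.6 CPM. The Young 10x library was high against every other, and no such difference appeared in the second set. The log2 ratio of Old over Young was -1.72 (-1.84 to -1.60) in the 10x set and -0.07 (-0.49 to 0.34) for the second. Running over Sedentary gave 0.73 (0.55 to 0.90) and 0.07 (-0.22 to 0.35).

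Within 10x Type IIb-like nuclei Mstn stood at 33.5, 89.3, 35.8 and 24.4 CPM in Old, Young, Running and Sedentary, and Young was highest in each of the 4 large clusters. In the fit of all libraries the log2 fold change of Mstn for Old versus Young was -1.61 ± 0.75 over all nuclei (unadjusted p = 0.0602, adjusted p = 0.749) and -0.86 ± 0.62 in Type IIb-like nuclei (adjusted p = 1). For Running versus Sedentary it was 0.28 ± 0.74 and 0.18 ± 0.55 (both adjusted p = 1). None passed. The direction of the Running value over all nuclei turned to -0.55 at the lowest when 1 library was left out (Sedentary 10x or Running second), and that of the Old value in Type IIb-like nuclei to 1.11 without the Young 10x library.

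Acvr2b, the receptor that binds myostatin on muscle, had the smallest unadjusted p of the receptor list for Old versus Young, with a log2 fold change of -0.98 ± 0.45 (unadjusted p = 0.056, adjusted p = 0.749). It was at 53.7 CPM in Old and 91.2 in Young of the 10x set and at 31.2 and 36.6 CPM in the second set, lower in Old in both. Among 14 genes that process or bind myostatin or act in its signalling (Smad2, Smad3 and Smad7), all tested, 0 passed in either comparison. Their median log2 fold changes were 0.24 and 0.10 beside 0.28 and -0.05 over all genes. Fst, follistatin, which binds and blocks myostatin, came closest for Running versus Sedentary at 1.30 ± 0.55 (unadjusted p = 0.042, adjusted p = 1). It was at 19.4 against 6.93 CPM in the 10x set and at 4.198 against 2.14 CPM for the second, higher in Running in both. The protease Bmp1, which frees myostatin from its propeptide, gave 1.29 ± 0.66 (adjusted p = 1) in the same comparison. For Old versus Young the proteases Tll1 (1.02 ± 0.67) and Pcsk5 (0.82 ± 0.65) had the smallest unadjusted p, with an adjusted p = 0.749 for each. In the 10x set neither was higher in Old (21.7 against 22.0 CPM for Tll1 and 68.9 against 81.7 CPM for Pcsk5), whereas the Old second library was high (70.5 against 12.2 CPM and 118 against 23.2 CPM).

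The members were also compared between the 2 fast nuclear classes within each library. Clusters were found without the 10 genes, so that a member's level in a class is no part of its definition. Each library gave 1 difference, the log2(CPM + 10) of Type IIb-like minus that of Type IIa/IIx-like nuclei, and the 6 members with at least 10 UMIs in the 2 classes together in 6 or more libraries were tested. An exact two-sided permutation test that flips the sign of the 8 differences cannot go below p = 0.0078. The p-values below are unadjusted for the 6 genes tested. Only members were tested, so the share of all genes that would pass is not known. The number of members that passed is therefore no trait particular to myokines.

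Ostn and Mstn were higher in Type IIb-like nuclei. The mean difference of Mstn was 1.20 ± 0.63 (SD, n = 8, exact permutation p = 0.0078), with all 8 libraries above 0, from 0.26 in Running to 2.25 in Old of the second set. The value of 2.25 rests on 8 Mstn UMIs in Type IIb-like and 0 in Type IIa/IIx-like nuclei. That of Ostn was 1.254 ± 1.079 (SD, n = 8, exact permutation p = 0.0234), with 7 of 8 libraries above 0. The exception is the Old second library at -1.13, which holds 6 Ostn UMIs in its 36 Type IIa/IIx-like nuclei, and without which the mean was 1.60. The 4 differences of the 10x set lay between 1.94 and 2.07, but this closeness rests on the 10 CPM added to each level. Named Type IIb-like first, the levels were 528 against 126 CPM in Old and 606 against 150 CPM in Sedentary. Young had 42.2 against 3.61 CPM (8 UMIs in Type IIa/IIx-like nuclei) and Running 83.3 against 12.2 CPM. The plain ratio was thus wider in Young and Running than in Old and Sedentary.

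Fndc5, Bdnf and Metrnl were higher in Type IIa/IIx-like nuclei. For Fndc5 the mean difference was -0.87 ± 0.31 (SD, n = 8, exact permutation p = 0.0078) and for Bdnf -1.05 ± 0.61 (SD, n = 8, exact permutation p = 0.0078), each below 0 in 8 of 8 libraries. The Old second library adds little to this. Its Type IIb-like and Type IIa/IIx-like nuclei held 5 and 2 UMIs of Fndc5 (difference -0.97) and 1 and 2 of Bdnf (-2.15). In the 10x set Fndc5 was at 1.69 against 12.7 CPM in Old, 1.38 against 9.93 in Young, 2.16 against 11.7 in Running and 0.982 against 2.81 in Sedentary, Type IIb-like named first. Bdnf was at 6.89 against 37.9 CPM in Old, 11.2 against 33.4 in Young, 3.22 against 23.8 in Running and 10.6 against 30.9 in Sedentary. All 4 Type IIa/IIx-like levels of Bdnf lay above all 4 Type IIb-like ones. Metrnl differed by -0.30 ± 0.19 (SD, n = 8, exact permutation p = 0.0156), with 7 of 8 libraries below 0 and no UMI of it in either class of the Old second library. Its levels lay under the 10 CPM added to each, which makes this difference small. In the 10x set Metrnl was at 1.33 against 7.26 CPM in Old and 1.13 against 4.96 CPM in Young. Running and Sedentary gave 1.15 against 3.71 CPM and 0.368 against 3.80 CPM.

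Il15 did not pass, with -0.38 ± 0.93 (SD, n = 8, exact permutation p = 0.344), and the 2 sets differed in its pattern. The 4 differences of the 10x set ran from -1.25 to -0.95 and those of the second set from -0.18 to 1.46, with no overlap between the sets. The Old second value of 1.46 rests on 1 UMI in Type IIa/IIx-like nuclei. With 1 library left out at a time 4 of 5 or 5 of 6 genes tested passed, Metrnl being the one that fell under the count minimum, and with coarser clusters, which left only the 4 10x libraries, an exact permutation test cannot go below p = 0.125. Without cluster 0 of the second set, which leaves 7 libraries, the same 5 genes passed in the same directions, each at p = 0.0156, the smallest this exact permutation test can give, and Il15 did not (exact permutation p = 0.0781).

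**Figure D3:**
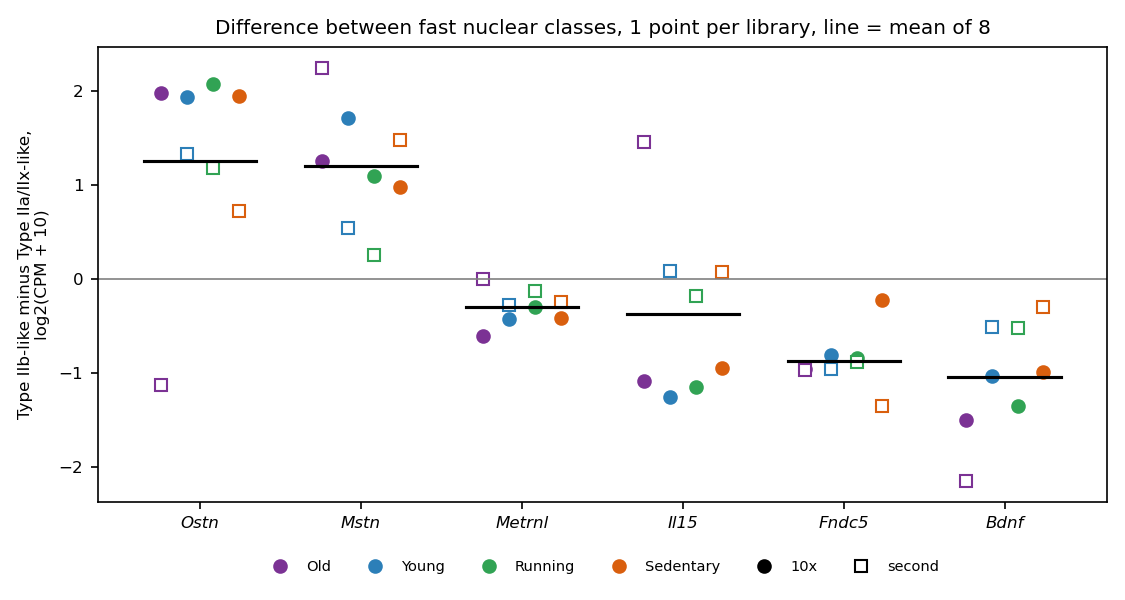
Difference between Type IIb-like and Type IIa/IIx-like nuclei for the 6 genes tested (x axis), as log2(CPM + 10) in the first class minus that in the second (y axis), with 1 point for each library (filled circle 10x, open square second, colour by group) and a line at the mean of 8. All Mstn points lie above 0 and all Fndc5 and Bdnf points below it, whereas Il15 has its 10x points at -1.25 to -0.95 and 3 of 4 second points above 0.

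Fndc5 over all nuclei was at 3.55 CPM (Old), 1.90 CPM (Young), 3.80 CPM (Running) and 2.45 CPM (Sedentary) of the 10x set. The second libraries held 12.9, 25.9, 9.52 and 8.35 CPM, above every 10x library. Old was higher than Young in the 10x set (log2 ratio 0.90, 0.49 to 1.33) and lower in the second (-1.004, -1.42 to -0.60). Running over Sedentary was 0.63 (0.19 to 1.09) and 0.19 (-0.40 to 0.80). The fit gave -0.69 ± 0.71 for Old versus Young (adjusted p = 0.749) and 0.48 ± 0.70 for Running versus Sedentary (adjusted p = 1), and the first turned to 0.45 without the Young second library. Slow-like nuclei of the second set were at 52.6 CPM in Young (39 UMIs) and 47.6 CPM in Running (5 UMIs), beside 21.7 to 42.0 CPM in Type IIa/IIx-like nuclei of the 3 second libraries with at least 50 of them. Endothelial-like nuclei of the Young second library held 68.2 CPM (22 UMIs), above its slow-like nuclei.

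Bdnf over all nuclei was at 10.1 CPM in both Old and Young, 6.97 in Running and 17.5 in Sedentary of the 10x set. In the second set it was at 22.0, 15.6, 10.4 and 10.3 CPM. Running was below Sedentary in the 10x set (log2 ratio -1.33, -1.55 to -1.11) and did not differ beyond counting error in the second (0.01, -0.53 to 0.57). The fit gave -0.69 ± 0.54 for Running versus Sedentary (unadjusted p = 0.233, adjusted p = 1) and -0.23 ± 0.53 for Old versus Young (adjusted p = 0.847). The gene whose class profile was most like that of Bdnf over 48 class by library sums of the 10x set was Fgf1, another growth factor (Pearson r = 0.81), followed by Tmem65 (0.76). These sums share libraries and depth, and r is given as a description among 12907 genes.

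Il15 was found in every named class of the 10x set with at least 50 nuclei in a library. In the 10x set macrophage-like nuclei were at 207 to 234 CPM, a narrow range over the 4 libraries, and Type IIa/IIx-like nuclei at 153 to 263 CPM. Type IIb-like nuclei were at 58.3 to 128 CPM and fibro-adipogenic progenitor-like nuclei at 116 to 158 CPM. Muscle stem cell-like nuclei were lower, at 16.3 to 72.5 CPM. Old and Sedentary were the 2 high libraries in both fast classes, with 263 and 257 CPM in Type IIa/IIx-like nuclei against 153 and 155 CPM in Young and Running. Macrophage-like nuclei did not share that order, as Young was their highest library.

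Over all nuclei Il15 stood at 133, 79.6, 86.8 and 151 CPM in Old, Young, Running and Sedentary of the 10x set and at 55.0, 123, 101 and 109 CPM in the second set. Old over Young was 0.74 (0.67 to 0.80) on the log2 scale in the 10x set and -1.16 (-1.35 to -0.97) for the second. Running over Sedentary was -0.79 (-0.86 to -0.73) and -0.10 (-0.27 to 0.07). The fit called neither, with -0.54 ± 0.59 (adjusted p = 0.749) and -0.39 ± 0.57 (adjusted p = 1). The first turned to 0.32 without the Old second library. The nearest class profiles were those of Mitf (r = 0.63), Fam234a (0.62) and Lifr (0.60).

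Metrnl was counted mainly outside myonuclei in the 10x set. Macrophage-like nuclei of the 10x set held 83.9 CPM (Old), 107 CPM (Young), 52.0 CPM (Running) and 56.0 CPM (Sedentary). Fibro-adipogenic progenitor-like nuclei held 33.9, 33.0, 27.1 and 21.6 CPM, and Type IIb-like nuclei 1.33, 1.13, 1.15 and 0.368 CPM. The macrophage-like level was the highest and the Type IIb-like level the lowest of these 3 classes in each of the 4 libraries, with no overlap between classes. Fibro-adipogenic progenitor-like nuclei gave 30.7% to 56.8% of the Metrnl UMIs and macrophage-like nuclei 13.7% to 24.3%. In the second set, where no macrophage cluster was found, the 3 libraries with at least 50 fibro-adipogenic progenitor-like nuclei held 4 Metrnl UMIs in them. Type IIb-like nuclei of that set held 32 and Type IIa/IIx-like nuclei 12, so the low counts of the second set lay mainly in myonuclei and unnamed nuclei.

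Over all nuclei Metrnl was at 14.8 CPM (Old), 10.2 CPM (Young), 6.45 CPM (Running) and 3.79 CPM (Sedentary) of the 10x set, and at 7.94, 3.81, 2.24 and 2.57 CPM in the second. It was the 1 gene of 7 comparable in both sets whose Old over Young ratio had intervals above 0 in each, with 0.54 (0.35 to 0.73) and 1.06 (0.36 to 1.76) on the log2 scale. How many of all genes do so was not computed. The 10x classes that hold most Metrnl were larger in Old, with 29.3% against 18.6% of nuclei fibro-adipogenic progenitor-like and 4.99% against 2.59% macrophage-like. The levels within these classes (33.9 against 33.0 and 83.9 against 107 CPM) did not show the difference. In the second set fibro-adipogenic progenitor-like nuclei were fewer in Old, at 0.272% against 1.91%, and no macrophage cluster was found. The summed macrophage markers (6 of 6 detected) were at 758 against 554 CPM in the 10x set and 346 against 150 CPM for the second. The part of class sizes in the Metrnl values was not tested. In the fit Metrnl did not pass (0.32 ± 0.61, adjusted p = 0.819), and it turned to -0.10 without the Old 10x library. Running versus Sedentary gave 0.33 ± 0.65 (adjusted p = 1). The genes nearest in class profile were Rab7b (r = 0.92), Gm41804 (0.88) and Abca9 (0.85), all closer than any neighbour of the other 4 genes with 500 or more 10x UMIs. For those, the nearest were Ugp2 (0.80), Mylk4 (0.78) and Uts2b (0.78) for Ostn, and Myh4 (0.73), Actn3 (0.72) and Ampd1 (0.70) for Mstn. Myh4 and Actn3 are the Type IIb myosin and an actinin of fast fibres, and Mylk4, Myh4 and Actn3 served to name the classes.

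**Figure D4:**
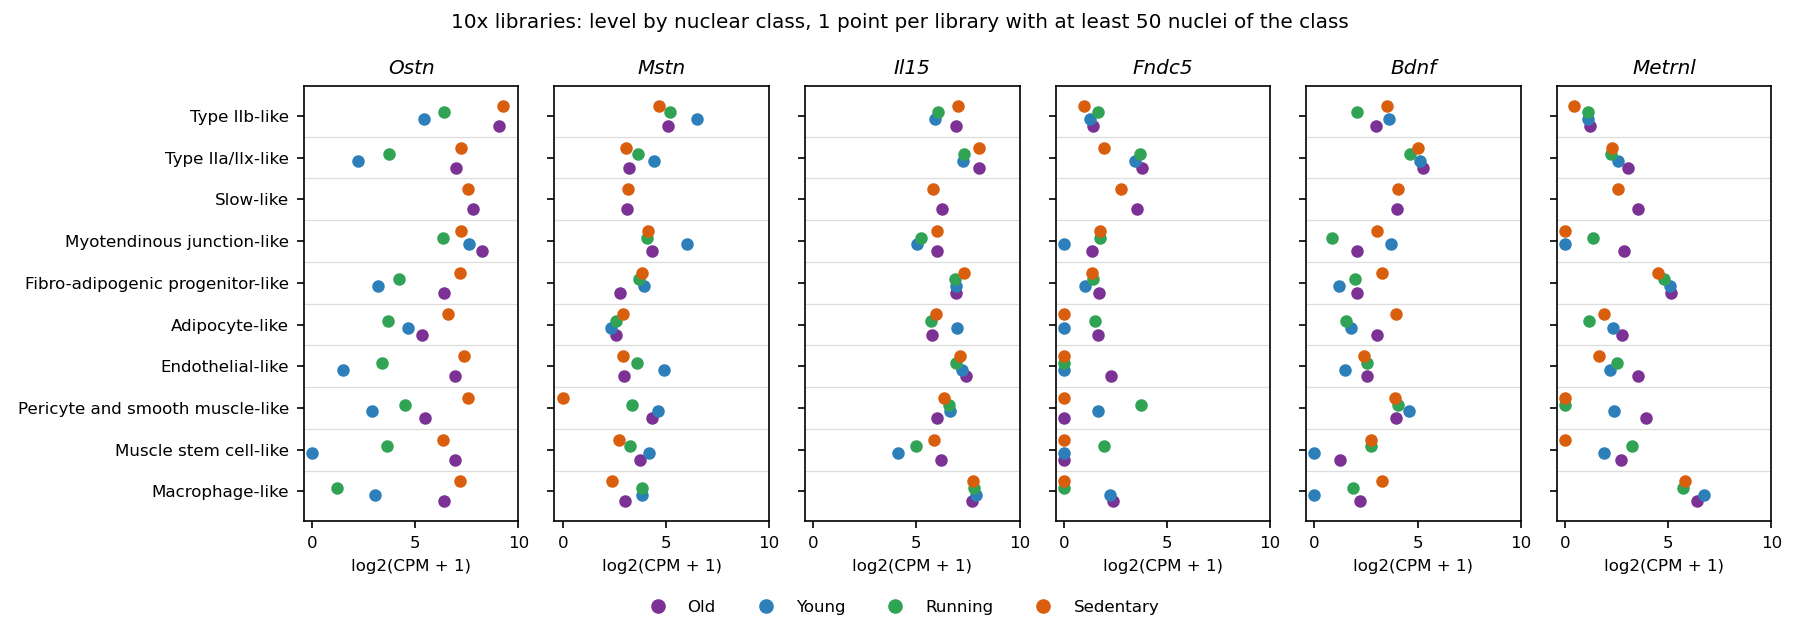
Level of 6 genes in 10 nuclear classes of the 10x libraries (y axis) as log2(CPM + 1) (x axis), with 1 point for each library that holds at least 50 nuclei of the class, coloured by group. Ostn spreads by library in every class but slow-like nuclei, which have 2 points at 187 and 219 CPM. Il15 in macrophage-like nuclei keeps to 207 to 234 CPM, and Metrnl is highest in macrophage-like nuclei (52.0 to 107 CPM).

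Across the 10 genes neither comparison gave a call over all nuclei. In the fit 8 of the 10 were tested (Fgf21 and Apln fell under the filter on low counts) and 0 passed in each direction, beside 0% of all 22521 genes in Old versus Young and 0% in Running versus Sedentary. At an unadjusted p under 0.05 these held 505 and 107 genes, none of them a member, and DESeq2 called 0 genes as well (1244 and 394 at an unadjusted p under 0.05). In Type IIb-like nuclei 7 members were tested and 0 passed, beside 0% of 15913 genes in both comparisons (879 and 381 at an unadjusted p under 0.05), while DESeq2 called 10 and 0 genes. The median log2 ratio of Old over Young among the comparable members was 0.82 for the 10x and 0.22 for the second libraries, and that of Running over Sedentary -0.09 and 0.01. Of the 7 genes comparable in both sets, 4 had opposite directions in the 2 sets for Old versus Young (Ostn, Fndc5, Il15 and Bdnf) and 3 for Running versus Sedentary (Ostn, Metrnl and Bdnf). The share of all genes with opposite directions was not computed, so these counts are no trait particular to the members.

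**Figure D5:**
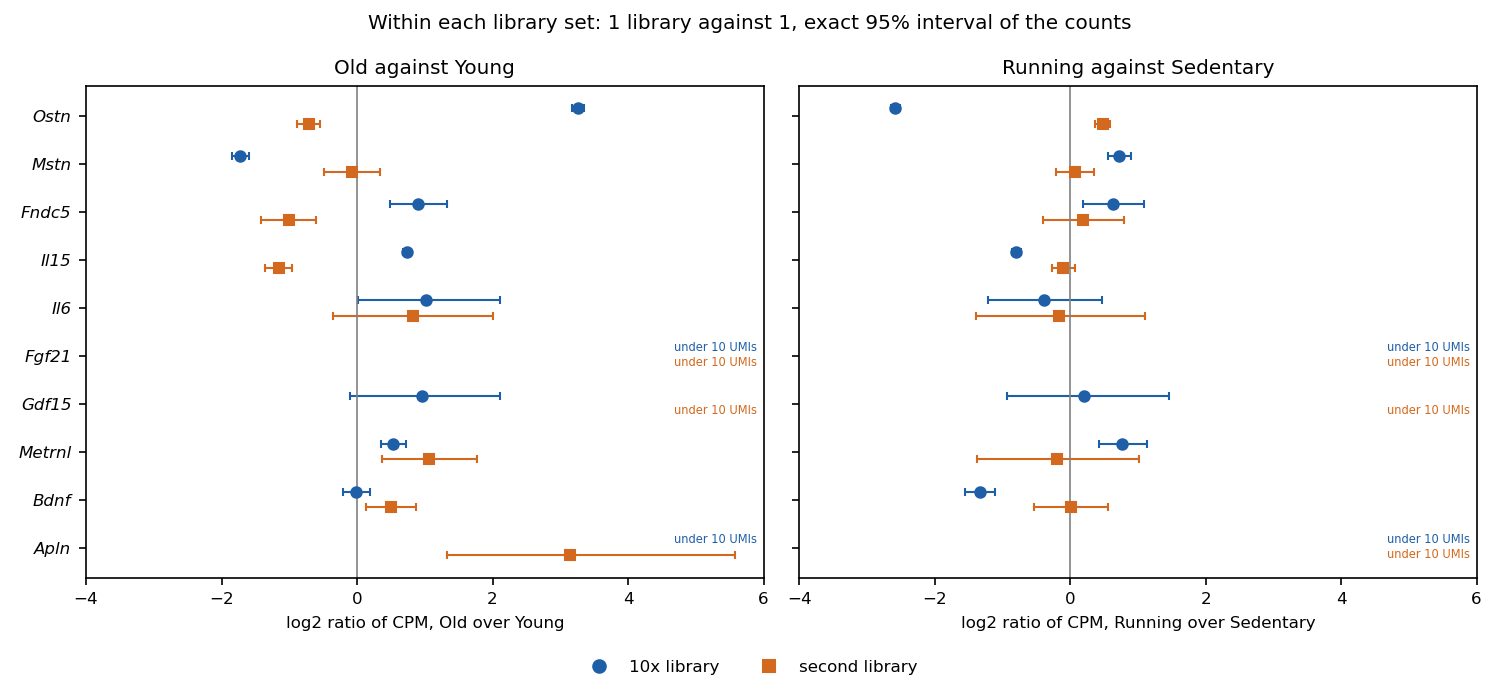
log2 ratio of CPM over all nuclei (x axis) for each gene (y axis), Old over Young at left and Running over Sedentary at right, with the exact 95% interval of the counts (counting error only) and a line at 0. Circles are the 10x pair and squares the second pair, and pairs with under 10 UMIs in both libraries are marked in place of a point. Ostn lies at 3.26 and -0.71 at left and at -2.59 and 0.48 at right.

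The lists of related genes gave no call either, by edgeR over all nuclei. Of 23 receptor genes, all tested, 0 passed in either comparison, with median log2 fold changes of 0.03 for Old versus Young and -0.04 for Running versus Sedentary beside 0.28 and -0.05 over all genes. Npr1, a guanylyl cyclase receptor of natriuretic peptides, gave 0.80 ± 0.65 for Running versus Sedentary (adjusted p = 1). Of 12 transcription factors known to act on these genes 0 passed, and their median was -0.58 for Old versus Young and -0.11 for Running versus Sedentary. Mef2c, which drives muscle genes, had the smallest unadjusted p for Old versus Young (-1.42 ± 0.58, unadjusted p = 0.0345, adjusted p = 0.749), with 2475 against 4388 CPM in the 10x set and 1399 against 3363 CPM for the second, lower in Old in both. Hif1a, the hypoxia factor, followed with -0.72 ± 0.42 (adjusted p = 0.749). For Running versus Sedentary Ppara (-0.56 ± 0.57) and Foxo1 (-0.40 ± 0.44) came first, each with an adjusted p = 1. Ppara was at 77.5 against 159 CPM in the 10x set and 152 against 150 CPM for the second, and Foxo1 at 203 against 195 CPM and 72.6 against 140 CPM, so neither was lower in Running in both sets. Ppara is also among the markers that named Type IIa/IIx-like nuclei.

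Among 26 other factors that muscle can secrete 24 were tested and 0 passed, with medians of 0.21 and 0.09. Angptl4, an inhibitor of lipoprotein lipase, gave 1.73 ± 0.80 for Old versus Young (adjusted p = 0.749). It was at 12.2 against 4.40 CPM in the 10x set and at 6.16 against 0.672 CPM for the second, higher in Old in both. Nrg4 gave 0.79 ± 0.40 (adjusted p = 0.749), with 102 against 58.6 CPM and 142 against 42.7 CPM. For Running versus Sedentary Il18 (1.44 ± 0.73) and Bmp4 (0.84 ± 0.59) had the smallest unadjusted p, with an adjusted p = 1 for each.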

How the data were processed

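Each library came as 1 matrix of UMI counts, which the authors deposited raw. Per the labels and the methods, 10x reads were counted with Cell Ranger 6.1.2 and the others with PISA, on mm10; the submitters' processing notes also name Seurat 4.1.1. Kept were 64803 of 65280 nuclei, with 200 to 6000 genes (bounds excluded) and mitochondrial UMIs below 6%; doublets were not removed, and whether intronic reads were counted is not given in the sources used here. Each library set was clustered separately (leidenalg 0.10.2, resolution 1.0 for 10x and 2.0 for the second set, the latter raised after seeing that Type IIa/IIx-like nuclei had not separated) without the 10 genes. Names come from marker lists, by limits set after the clusters were seen. Counts were summed per library, or per library and class with at least 20 nuclei, leaving out 13 mitochondrial and 90 ribosomal protein genes, which also stay out of CPM. edgeR 4.0.16 (quasi-likelihood, TMM, filterByExpr, Benjamini-Hochberg, threshold 0.05) fitted all 8 libraries with group and library set as terms (3 residual degrees of freedom). On simulated counts of 22521 genes at the fitted dispersion of 0.326, Old against Young recovered 0% of 4-fold and 48% of 16-fold changes. The members and lists were chosen with earlier results of these data known. All 10 members are named, and of each pathway list the genes that passed, or otherwise the 2 with the smallest unadjusted p per comparison. Neighbours are the 3 genes with the highest r for members with 500 or more 10x UMIs; 1 of them is not reported here.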

Additional observations from a re-analysis of the deposited data

How the results depend on the processing

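Precision is limited by 2 libraries a group on different platforms and by the Old second library. Genes called over all nuclei in Old against Young (main value 0) were 3 without the filter on low counts, 4 with the 4 libraries of the comparison, and 0 to 6 with 1 library left out; in Running against Sedentary (0) they were 78 with those 4 libraries, and 0 to 65. In Type IIb-like nuclei (0 and 0) they were 10 by DESeq2 and 12 without cluster 0 of the second set (an alternative chosen after seeing the data, which called no myokine gene) in Old against Young, and 0 to 164 and 0 to 183 with 1 library left out. In Type IIa/IIx-like nuclei (124 and 62) they were 0 and 0 without the library set, 47 and 1 by DESeq2, and 0 to 165 and 0 to 83 with 1 left out; DESeq2 gave Ostn no adjusted p for Old against Young there and coarser clusters left too few libraries for a fit. Of the class differences 5 passed, 0 with coarser clusters (4 libraries), and 4 to 5 with 1 library left out. The labels give no replicate numbers to pair libraries by, and the library set, with 1 library of each group in each set, served as the block. Leaving out 1 library, log2 values over all nuclei that turned direction ran for Old against Young from -1.41 to 2.72 (Ostn), -0.10 to 0.46 (Metrnl), -1.94 to 0.32 (Il15) and -1.68 to 0.45 (Fndc5), and for Running against Sedentary from -2.46 to 0.43 (Ostn), -0.55 to 1.82 (Mstn), -0.30 to 0.98 (Metrnl) and -0.13 to 0.27 (Gdf15). In Type IIb-like nuclei they ran for Old against Young from -1.03 to 2.87 (Ostn), -0.58 to 0.60 (Fndc5), -0.60 to 0.62 (Il15), -6.22 to 2.18 (Il6) and -1.72 to 1.11 (Mstn), and for Running against Sedentary from -2.63 to 0.12 (Ostn) and -0.50 to 1.10 (Mstn). In Type IIa/IIx-like nuclei they ran for Old against Young from -0.14 to 0.24 (Fndc5), -2.59 to 0.43 (Il15), -8.28 to 0.40 (Mstn) and -0.10 to 0.79 (Bdnf), and for Running against Sedentary from -0.026 to 1.77 (Fndc5) and -0.42 to 0.37 (Bdnf). Other settings that turned a direction in Old against Young were library totals (Bdnf 0.29 over all nuclei), no library set term (Type IIb-like Il15 -0.015 and Il6 -0.35, Type IIa/IIx-like Fndc5 -0.61), DESeq2 (Type IIb-like Fndc5 0.008) and coarser clusters (Type IIb-like Il15 -0.20). The causes were not tested.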
